A study of Mus musculus with 3 samples.

Results

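The genes described here are those of T cell identity and of the CTLA-4 pathway: the CD3 chains Cd3d, Cd3e and Cd3g, the co-receptors Cd4 and Cd8a, the kinases Lck and Zap70, and the receptors Cd28, Ctla4 and Icos. Members were taken by symbol, 10 genes against the 19321 named on the array, and 9 of the 10 had a probe. Cd8a had 2, which gave 10 probes among the 23473 of each array. Lck had 0 probes under its name and was not analysed here. The question was whether RNA of T cells was present in the synovial culture, and how the signals of these genes differed between conditions.

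Synovial cells were isolated from the pannus, the inflamed tissue that grows into the joint, of D1BC mice. These mice have the DBA/1 background and carry a transgene for murine B7.1 (CD80) under the promoter and enhancer of rat collagen II, so that chondrocytes and the synovial membrane make CD80, and their arthritis was induced with a low dose of bovine type II collagen. The isolation protocol of the methods text includes several days of culture, and its array protocol names a night in culture before treatment. Cells then received CTLA-4-Ig (abatacept), hIgG or vehicle (DMEM with 10% FBS) for 48 h. From the RNA of each condition 1 Cy5-labelled array was made. All 3 conditions share the transgene and the arthritis, and the age of the mice at harvest was not given in the sources used here. CTLA-4-Ig is the outer part of human CTLA-4 fused to a modified Fc part of human IgG. hIgG is its protein control. The titles give 100 μg for both proteins, the methods text gives 100 μg/ml, and the protocol text of the labels gives 100 mg/ml. These sources do not tell which mice the 3 cultures came from, or whether tissue was pooled. With 1 array per condition, no difference has a replicate check, no test was run, and the cultures themselves may differ in ways that enter every ratio.

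T cells recognise antigen with the T cell receptor, whose signal runs through the CD3 chains. CD4 and CD8 bind the MHC molecule and bring the kinase LCK, which phosphorylates the CD3 chains so that the kinase ZAP70 can dock on them. CD28 gives the second, co-stimulatory signal when it binds CD80 or CD86 on another cell. CTLA-4 binds the same ligands more tightly and dampens the T cell, and ICOS is a related receptor of activated T cells. The drug CTLA-4-Ig covers CD80 and CD86, and its usual target is therefore the contact between antigen-presenting cells and T cells.

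The values are normalized signals, spot intensities after subtraction of the blank spots, scaled on each array to a median of 25 over the detected probes. A probe was detected where its intensity exceeded the mean of the blank spots by 2 standard deviations, which corresponds to a signal of 0.791 with CTLA-4-Ig, 0.894 with hIgG and 0.963 with vehicle. This limit was low. Of all probes, 84.0%, 81.7% and 81.4% passed it (in the order CTLA-4-Ig, hIgG, vehicle), and so did 53.8%, 50.2% and 48.4% of the 1019 probes for olfactory receptors, a large family of odorant receptors used mainly by neurons of the nose. Among 3454 spots that carry no probe, 46.0%, 25.1% and 21.6% also passed it, the highest at 13.6, 22.8 and 21.4. Of 96 negative control spots, 18.75%, 8.33% and 12.5% passed it, the highest at 1.62, 1.52 and 1.53. Passing is thus weak evidence of RNA. A second, stricter limit was therefore set at the 95th percentile of the olfactory receptor probes, at 26.0, 24.1 and 22.8. It was passed by 41.3%, 41.3% and 42.1% of all probes. Probes bind their targets with unequal strength, so that each signal was compared with these limits and with the same probe on the other arrays.

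**Figure D1:**
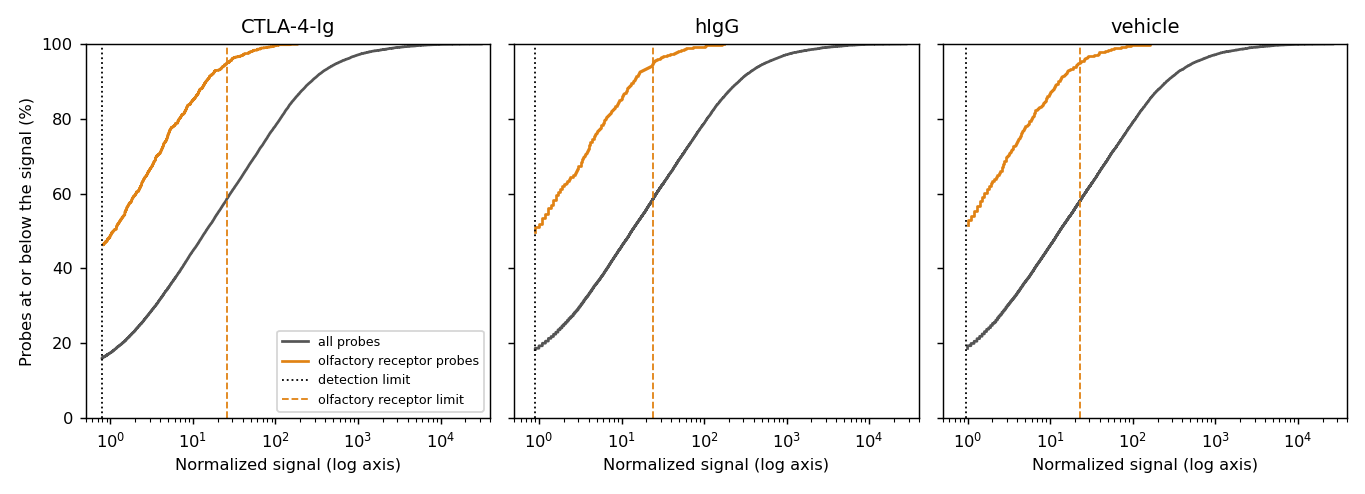
Cumulative share of probes (y axis, %) at or below each normalized signal (x axis, log scale) with CTLA-4-Ig, hIgG and vehicle, for all 23473 probes and for the 1019 olfactory receptor probes, with undetected probes counted as lowest. The detection limit (dotted) lies below 48.4% to 53.8% of the olfactory receptor probes, whereas the stricter limit (dashed, 22.8 to 26.0) lies above 95% of them.

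Most of the T cell genes were detected, but at signals below the stricter limit. Of the 10 probes, 7 were detected with CTLA-4-Ig, 7 with hIgG and 8 with vehicle, a smaller share than over all probes. The same 7 probes, of 6 genes, were detected on all 3 arrays, and the probes of Cd3e and Cd3g were detected on none. Only Cd28 exceeded the stricter limit, on every array, which is 1 of 9 genes or 11.1%. Of all probes, 41.3%, 41.3% and 42.1% exceeded it with CTLA-4-Ig, hIgG and vehicle. The probes of Cd3d, Cd4, Cd8a and Icos lay at 4.01 to 12.2 times the detection limit of their array. Their signals were above those of 32.8% to 44.2% of all probes. In these cultures of mixed cells, fewer T cells and less RNA per T cell cannot be told apart.

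**Figure D2:**
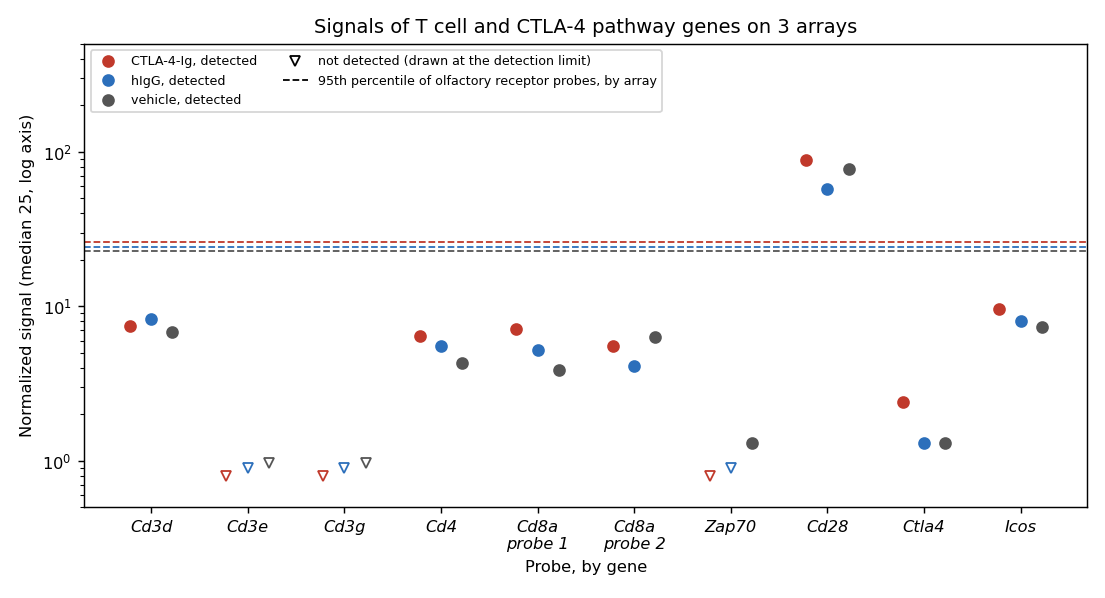
Normalized signal (y axis, log scale) of each of the 10 probes (x axis) with CTLA-4-Ig, hIgG and vehicle, 1 point per array with no replicates. Filled circles are detected signals, open triangles mark undetected probes at the detection limit, and dashed lines show the stricter limit of each array. Cd28 (57.8 to 89.0) is the only gene above the dashed lines, and all other detected signals lie at 9.62 or lower.

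Among the CD3 chains, whose genes lie side by side on chromosome 9, a single one was detected. The probe of Cd3d, the delta chain, had a signal of 7.44 with CTLA-4-Ig, 8.3 with hIgG and 6.8 with vehicle. These signals were above the detection limit on every array, but 18.8%, 17.0% and 17.7% of the olfactory receptor probes reached the same signal or more. For Cd3e, the epsilon chain, the signal rebuilt from the scan, where 0 is the mean of the blank spots, was 0.682, -0.168 and 0.0393 with CTLA-4-Ig, hIgG and vehicle. For Cd3g, the gamma chain, it was -0.846, -0.982 and -0.289, below the mean of the blank spots on all 3 arrays. The epsilon chain can pair with the delta chain and with the gamma chain. The probes of only 1 of these 3 subunits gave a signal distinct from the blank spots.

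The co-receptors were detected on all 3 arrays and stayed below the stricter limit on all of them. The probe of Cd4, the co-receptor of helper T cells, gave 6.47 with CTLA-4-Ig, 5.5 with hIgG and 4.3 with vehicle. Between 21.2% and 25.1% of the olfactory receptor probes reached as much on the same array. The first Cd8a probe (M400004660), for the alpha chain of the co-receptor of cytotoxic T cells, gave 7.08, 5.2 and 3.9 in the same order of arrays. The second Cd8a probe (M400018716) gave 5.51, 4.1 and 6.3. The 2 probes of this gene thus ordered the arrays differently: vehicle was the lowest array for the first and the highest for the second.

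Zap70, the kinase that docks on the phosphorylated CD3 chains, was detected on the vehicle array alone, at a signal of 1.3. On the CTLA-4-Ig and hIgG arrays its rebuilt signals were -0.255 and 0.186. Set against the lowest detected signal of each of these arrays, the vehicle signal was at least 1.64-fold higher than that on the CTLA-4-Ig array and at least 1.44-fold higher than that on the hIgG array. The rebuilt signal on the vehicle array was only 1.32 times the detection limit there, and detection was lost when the limit was raised to 3 standard deviations of the blank spots or when the blank spots were not trimmed.

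The genes of the 3 related receptors Cd28, Ctla4 and Icos lie next to each other on chromosome 1, but their probes gave different pictures. Cd28, the co-stimulatory receptor, gave 89.0 with CTLA-4-Ig, 57.8 with hIgG and 77.3 with vehicle. Of the 1019 olfactory receptor probes, 7, 14 and 7 reached as much. Cd28 therefore stood well above both limits on every array, and hIgG was the lowest array.

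Ctla4, the inhibitory receptor whose outer part makes up the drug, gave 2.39 with CTLA-4-Ig, 1.3 with hIgG and 1.3 with vehicle. The signals rebuilt from the scan were 3.03, 1.45 and 1.38 times the detection limit, and 37.6%, 45.4% and 44.7% of the olfactory receptor probes reached as much. At a limit of 3 standard deviations of the blank spots, Ctla4 was detected on the CTLA-4-Ig array alone. Icos gave 9.62, 8.0 and 7.3 in the same order of arrays. It was detected everywhere, and 15.4% to 17.4% of the olfactory receptor probes reached its signal.

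The differences between conditions were small for all of these probes. No member probe of the 7 detected on all arrays was 2-fold apart between any 2 arrays, whereas 0.710% of all probes detected on both arrays were 2-fold apart either way between CTLA-4-Ig and hIgG, 0.893% between CTLA-4-Ig and vehicle, and 0.545% between hIgG and vehicle. With shares this small, a count of 0 among 7 probes says little. At 1.5-fold, Cd28 and Ctla4 were higher with CTLA-4-Ig than with hIgG (2 of 7, against 3.79% of all probes) and 0 were lower (1.22%). Cd4, the first Cd8a probe and Ctla4 were higher with CTLA-4-Ig than with vehicle (3 of 7, against 4.69%) and 0 were lower (1.30%). Cd4 lay at this threshold, at 1.504-fold from the deposited signals and 1.498-fold from those rebuilt from the scan. Between the controls, 0 were higher with hIgG than with vehicle (2.07%), and the second Cd8a probe was lower (1 of 7, against 1.90%). Except for Cd28, all of these lie below the stricter limit, where the spread between arrays is wide.

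Because there are no replicates, each log2 ratio was set beside those of all probes with a similar mean signal. Cd28 had a log2 ratio of 0.62 between CTLA-4-Ig and hIgG, of 0.20 between CTLA-4-Ig and vehicle, and of -0.42 between hIgG and vehicle, the condition named first being the numerator here and below. Over the 2288 probes with a mean signal of 50 to 100, the standard deviation of the log2 ratio was 0.19, 0.20 and 0.17 in these comparisons. Of these probes, 1.53%, 53.5% and 1.84% lay at least as far from the median of their range as Cd28 did. The Cd28 signal on the hIgG array thus stood apart from the other arrays more than most probes of its range, and CTLA-4-Ig and vehicle differed by no more than is usual for it.

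The direction of the Cd28 differences depended on the background that was subtracted. In the scan, the Cd28 spot had an intensity of 199.99 with CTLA-4-Ig, 143 with hIgG and 183 with vehicle, and the background column beside it held 170, 81.0 and 154. That column rose and fell with the spots (correlation across probes of the log2 values of 0.991 to 0.997, with genes not independent replicates), and the deposited normalized values do not use it. With the column corrected by normexp, an offset of 50 was added and the arrays were then quantile normalized. The offset shrinks log2 ratios, most of all those of dim probes. The log2 ratios of Cd28 were then -0.23, -0.15 and 0.08, so that hIgG became the highest array. Under 75th percentile scaling, scaling by jointly detected probes and quantile normalization, hIgG remained the lowest array for Cd28.

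Ctla4 had a log2 ratio of 0.88 against hIgG and of 0.88 against vehicle on the CTLA-4-Ig array. Under a mean signal of 2, the standard deviation over 927 probes was 0.48 and 0.52, and 15.0% and 14.1% of them lay at least as far out. Between hIgG and vehicle the ratio was 0.00, with both signals deposited as 1.3. The higher Ctla4 signal on the CTLA-4-Ig array was therefore within the range that many dim probes showed. Under normexp the ratios were -0.0076 against hIgG and -0.011 against vehicle. The offset shrinks ratios of signals this low whatever the data, so that these values and their signs carry little information. The hIgG and vehicle signals were deposited with 1 decimal, which makes the ratios of signals this low coarse.

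For the probes with a mean signal of 5 to 10, a range of 2296 probes, the standard deviation of the log2 ratio was 0.28 between CTLA-4-Ig and hIgG, 0.29 between CTLA-4-Ig and vehicle, and 0.26 between hIgG and vehicle. The log2 ratios of Cd3d (-0.16, 0.13 and 0.29), Cd4 (0.23, 0.59 and 0.36) and Icos (0.27, 0.40 and 0.13) were each matched or exceeded in distance by 12.8% or more of these probes. For the first Cd8a probe they were 0.45, 0.86 and 0.42, and the second of these was matched by 2.44%. For the second Cd8a probe they were 0.43, -0.19 and -0.62, and the last was matched by 1.70%. The 2 Cd8a probes had opposite signs in both comparisons with vehicle, so that no direction for the gene follows from them. Under normexp the CTLA-4-Ig ratios against vehicle were 0.0065 for Cd4, 0.0025 for the first Cd8a probe and -0.046 for the second. The offset of that setting shrinks ratios at these signals whatever the data.

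**Figure D3:**
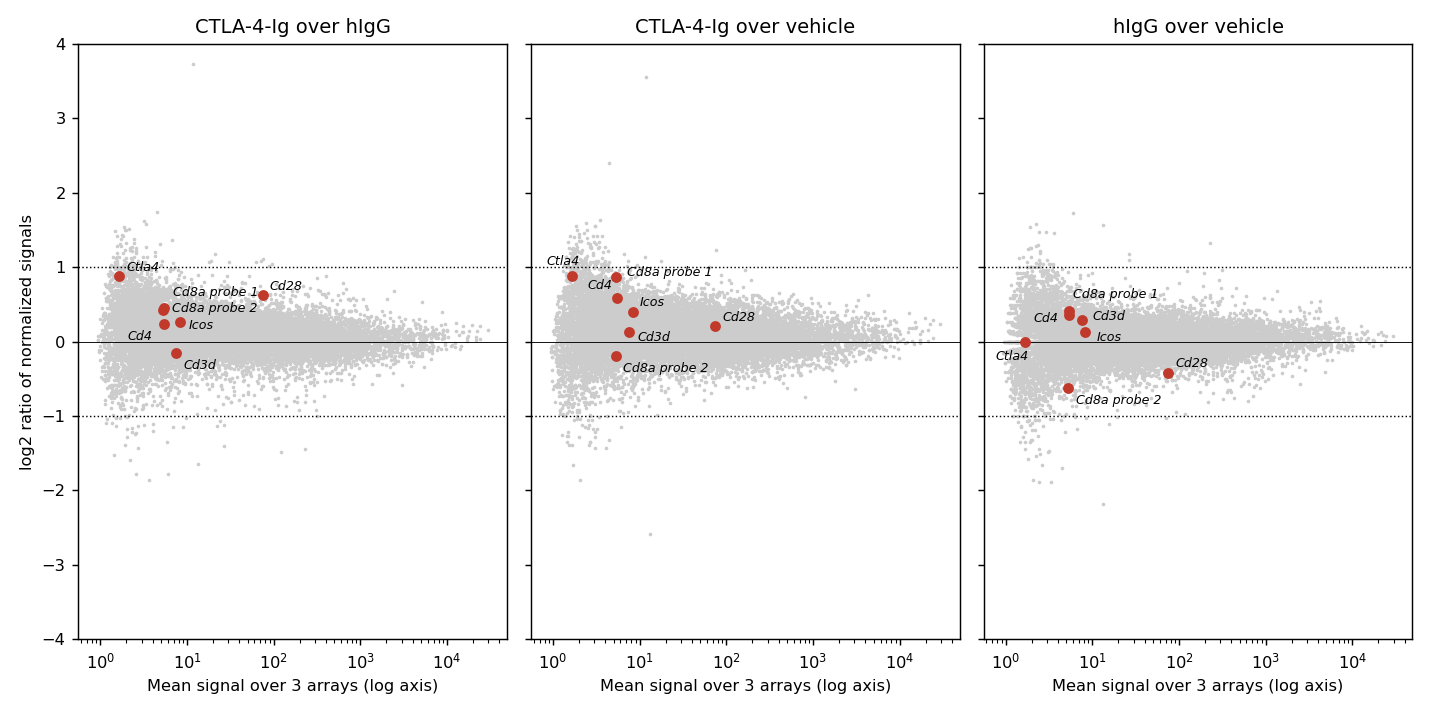
Log2 ratio of the normalized signals (y axis) against the mean signal over the 3 arrays (x axis, log scale) for the 18664 probes detected on all arrays (grey, 1 point per probe) and for the 7 member probes among them (red), in the 3 comparisons. Dotted lines mark 2-fold, which no member probe reached. Cd28 lies at the edge of the grey points in the comparisons with hIgG, at 0.62 and -0.42, and Ctla4 (0.88, 0.88 and 0.00) lies where the grey points spread widest.

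Of the 7 probes detected on all arrays, 5 were highest with CTLA-4-Ig, 1 with hIgG and 1 with vehicle. This order was common on these arrays. Of all 18664 such probes, 55.6% were highest on the CTLA-4-Ig array, as were 58.9% of 462 olfactory receptor probes. The median log2 ratio of the member probes was 0.43 between CTLA-4-Ig and hIgG, 0.40 between CTLA-4-Ig and vehicle, and 0.13 between hIgG and vehicle. Over all probes these medians were 0.09, 0.10 and 0.03. They were 0.13, 0.17 and 0.04 over the 2296 probes with a mean signal of 5 to 10. Over the 462 olfactory receptor probes they were 0.11, 0.21 and 0.11.

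The labels call the cells fibroblast-like synoviocytes, and the study describes them as a mixture of CD45- synoviocytes and CD45+ macrophages. The defining markers of both were above the stricter limit on every array, 6 of 6 for macrophages and 6 of 6 for synovial fibroblasts. Among these were Ptprc (CD45), at 333 with CTLA-4-Ig, 376 with hIgG and 345 with vehicle, and Thy1, at 557, 449 and 511. T cells of mice also carry both, and a second Thy1 probe was not detected on any array. In the longer lists, 14 of 14 fibroblast genes (Vim, Col1a2 and Col3a1 among them) and 14 of 15 macrophage genes (Lyz2, C1qb and C1qa among them) were above the stricter limit. The exception was the scavenger receptor Cd163, at 6.07 with CTLA-4-Ig, 9.6 with hIgG and 8.8 with vehicle. Of 8 defining T cell markers, 7 had a probe, 4 were detected on all arrays, 2 on none, and 0 were above the stricter limit on any array. Their summed signal was 51.6 with CTLA-4-Ig, 44 with hIgG and 45.9 with vehicle. RNA of the defining T cell markers was thus not detectable above the 95th percentile of the olfactory receptor probes, which does not show that T cells were absent. This count depended on the limit: at the 90th percentile (14.4, 13.9 and 12.6), Cd247 passed on all 3 arrays, and Cd2 passed with CTLA-4-Ig and with vehicle. The defining markers were chosen with earlier results of these data known, and the count does not cover T cell genes outside them. Above the stricter limit on every array were Cd28 and 5 of 33 genes in the longer T cell list. Over all probes the share above this limit was 41.3% to 42.1%, by array.

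The marker that came closest to the limit was Cd247, the zeta chain of the T cell receptor complex, which is also used by NK cells. It gave 24.5 with CTLA-4-Ig, 22.7 with hIgG and 19.9 with vehicle, just below the stricter limit on each. Cd2, an adhesion receptor of T and NK cells, gave 17.5, 10.4 and 15.9, and Cd5, a T cell receptor regulator also found on some B cells, gave 2.16, 2.6 and 2.0. Cd8b1, the beta chain that pairs with CD8 alpha, gave 1.89, 1.9 and 1.5. The adaptor gene Themis and the co-stimulatory ligand Cd40lg of helper T cells were not detected on any array.

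Among 33 other T cell genes with a probe, 5 exceeded the stricter limit on each array (15.2%, against 41.3% to 42.1% of all probes). They included Tbx21 (T-bet), a transcription factor of type 1 helper T cells and NK cells, at 257 with CTLA-4-Ig, 261 with hIgG and 231 with vehicle. One probe of Foxp3, the transcription factor of regulatory T cells, gave 131, 128 and 121, whereas the other Foxp3 probe was not detected on any array. Fyn, a Src family kinase that many cell types use, gave 80.7, 64.6 and 70.4. The other two, named after their values were seen, were Il7r, the IL-7 receptor alpha chain, at 62.8, 56.1 and 59.1, and Cd96, a receptor of T and NK cells, at 45.5, 38.8 and 44.9. None of the 3 CD3 chains passed the same limit, and the 2 Foxp3 probes gave opposite answers on the presence of its RNA.

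Lists of other cells and tissues were counted in the same way. Of 34 genes of photoreceptors, sperm and liver with a probe, 4 exceeded the limit on each array (11.8%), with the sperm genes Smcp and Tssk2 and the liver genes Fgb and G6pc above it. The share of the T cell genes above, 1 of 9 here and 5 of 33 in the longer list, can be read beside this one. All of these shares lie below the 41.3% to 42.1% of all probes. Of 9 B cell markers and 10 NK cell markers with a probe, 0 were above the limit on any array. The B cell gene closest to the limit was Cd22, a sialic acid receptor, at 24.4, 22.3 and 21.5, and the NK cell gene closest to it was Gzmb, a granule protease, at 21.3, 19.4 and 19.7.

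**Figure D4:**
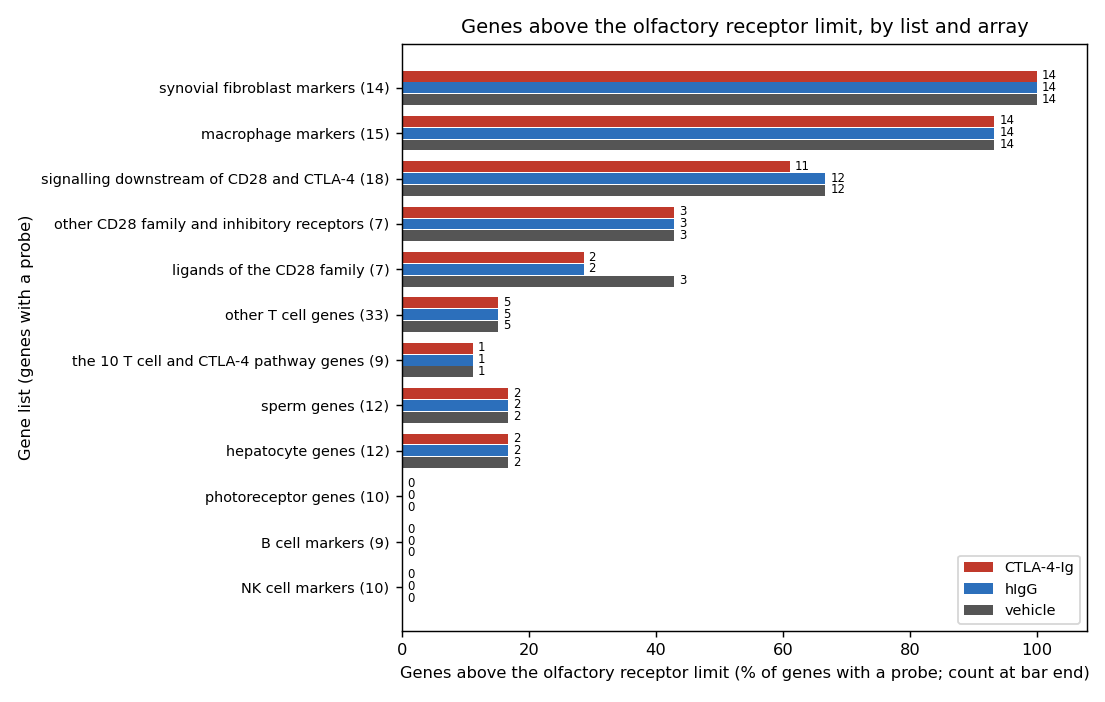
Share of the genes with a probe (x axis, %) whose signal exceeded the stricter limit, by gene list (y axis, genes with a probe in parentheses) and array, with the count at the end of each bar. Fibroblast and macrophage lists reach 14 of 14 and 14 of 15, the T cell genes 1 of 9 and 5 of 33, and B cell and NK cell lists 0.

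The partners of these receptors on other cells, and the molecules that carry their signals, were measured on the same arrays. Of 7 ligand genes of the CD28 family, 2 were above the stricter limit with CTLA-4-Ig, 2 with hIgG and 3 with vehicle (28.6%, 28.6% and 42.9%). Of all probes, 41.3%, 41.3% and 42.1% were above it. Cd80, the ligand of both CD28 and CTLA-4 and the gene that the transgene carries, had probes at 66.3, 46.2 and 61.0 and at 41.9, 25.8 and 37.8 on CTLA-4-Ig, hIgG and vehicle. In the scan, the spot minus the background column, which the deposited values do not use, was -6.36, -9.83 and -1.89 for the first probe. For the second it was 4.96, 2.21 and 4.46. Both probes were lowest on hIgG, as Cd28 was, also under 3 other scalings. Under normexp the log2 ratios of the Cd80 probes between CTLA-4-Ig and hIgG were -0.0032 and 0.014, but the offset of that setting also shrinks ratios. The others above the limit were Cd274 (PD-L1), at 29.8, 25.7 and 28.1, and on vehicle alone Cd276 (B7-H3), at 20.2, 20.5 and 27.7. Cd86, the other ligand of CD28, gave 14.9, 14.3 and 11.1, and Icosl, the ligand of ICOS, gave 1.53, 2.2 and 1.8.

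Of 7 further CD28 family and inhibitory receptors with a probe, 3 were above the limit on each array (42.9%). This was near the share of all probes above it (41.3%, 41.3% and 42.1%). The 3 receptors were Havcr2 (TIM-3), at 92.2 with CTLA-4-Ig, 92.0 with hIgG and 71.0 with vehicle, Vsir (VISTA), at 85.8, 81.0 and 87.8, and Btla, at 72.1, 57.5 and 62.7. TIM-3 and VISTA are also made by myeloid cells. Pdcd1, which encodes PD-1, the receptor of PD-L1, stayed below the limit at 5.87, 5.7 and 5.1.

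Of 18 genes for signalling downstream of CD28 and CTLA-4, 11 were above the limit with CTLA-4-Ig, 12 with hIgG and 12 with vehicle. These were 61.1%, 66.7% and 66.7%, against 41.3%, 41.3% and 42.1% of all probes. Pik3r1, a regulatory subunit of PI3 kinase, made the difference (22.2, 27.5 and 29.6). The genes above the limit included Ppp2ca, the catalytic subunit of the phosphatase PP2A, at 629, 572 and 547, the kinase gene Akt1, at 374, 331 and 348, and Ppp2r1a, the scaffold subunit of PP2A, at 339, 330 and 314. These enzymes are used by nearly all cell types. Il2, the cytokine that T cells make after CD28 co-stimulation, was not detected on any array. In all of the lists described here, no gene whose mean signal reached 25 was 2-fold apart between 2 arrays. Below that signal, 3 genes detected on both arrays compared were, named here after their values were seen. Genes undetected on either array have no ratio and were not counted. Cd69, an early activation marker of lymphocytes, gave 2.55, 5.5 and 4.0 (log2 ratio of -1.11 between CTLA-4-Ig and hIgG). Cd244, a receptor of NK cells and some T cells, gave 4.3, 2.8 and 2.1 (1.03 between CTLA-4-Ig and vehicle), and the liver gene Alb gave 2.87, 1.4 and 2.2 (1.03 between CTLA-4-Ig and hIgG). All 3 had a mean signal of 2 to 5, a range of 2643 probes. There the central 95% of CTLA-4-Ig log2 ratios ran from -0.57 to 0.91 against hIgG and from -0.60 to 1.02 against vehicle. Over all probes, 0.710% against hIgG and 0.893% against vehicle reached 2-fold in either direction. The 3 genes were picked for lying far out, and an effect of treatment on them was not tested.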

How the data were processed

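RNA of 3 synovial cultures was labelled with Cy5 and hybridized to 1 mouse oligo array each. The authors deposited the scanned spot intensity with a background column, and a table of normalized intensity values on a linear scale, in which the median of the detected probes is 25 and undetected probes are blank. The CTLA-4-Ig column has 6 decimals and the others have 1. All values come from this table unless named as rebuilt from the scan. The blank rule (384 blank spots, 5% trimmed at each end, mean plus 2 standard deviations) was inferred by matching, and the rebuilt signals gave the same detection for all probes, with 1 probe per array differing by over 0.06. Gene names came from the platform annotation, with symbols replaced by those of the RefSeq genes of GRCm38.p6 where the gene identifier matched (20690 with 1 symbol, 2783 not named here). The files name no genome build, so that no coordinates are given. A gene with several probes was counted by its brightest.

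Levels were compared with the detection limit and with the 95th percentile of olfactory receptor probes, undetected probes ranking lowest. Log2 ratios used probes detected on both arrays, with 2-fold as the threshold. No test was run, since each condition has 1 array. Positive control spots, 24 of a kind, varied by 6.30% to 13.5% (coefficient of variation) within an array. Ratios and limits were computed with pandas 2.3.3 and numpy 2.4.6 under Python 3.11.15, drawn with matplotlib 3.10.9, and the counting was tested on simulated data. Quantile and normexp (offset 50, then quantile normalized) alternatives used limma 3.58.1 in R 4.3.3. Members and gene lists were chosen with earlier results of these data known. All members are named, and in each other list the 3 genes with the highest mean signal and any gene 2-fold apart with a mean signal of at least 25. Further genes were added after their values were seen: Il7r, Cd96, Cd247, Cd2, Cd5, Cd8b1, Themis, Cd40lg, Cd163, Cd86, Icosl, Pdcd1, Pik3r1, Il2, Cd69, Cd244 and Alb.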

Additional observations from a re-analysis of the deposited data

How the results depend on the processing

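No paired analysis was possible because there is only 1 array for each condition. Raising the olfactory receptor limit to the 99th percentile left the T cell and CTLA-4 pathway genes above it at 0 on hIgG, where Cd28 fell below it, and at 1 on both other arrays. It left 3, 2 and 3 of the other T cell genes (CTLA-4-Ig, hIgG and vehicle), 7, 7 and 7 of the downstream signalling genes, 0, 0 and 0 of the ligands, 0, 0 and 0 of the sperm genes, and 0, 1 and 1 of the liver genes. At the 90th percentile the other T cell genes numbered 10, 9 and 10, the B cell markers 1, 1 and 1, the NK cell markers 1, 1 and 1, the ligands 4 on CTLA-4-Ig and 4 on hIgG, and the photoreceptor genes 1 on CTLA-4-Ig and 1 on hIgG. Lowering the fold threshold to 1.5 gave 2 member probes between CTLA-4-Ig and hIgG, 3 between CTLA-4-Ig and vehicle, and 1 between hIgG and vehicle. Quantile normalization gave 1 between CTLA-4-Ig and vehicle, Ctla4 at a log2 ratio of 1.04. The other 117 counts stayed within 1.5 times the main count, among them the members above the limit set by photoreceptor, sperm and liver genes. Of the 20 log2 ratios of member probes other than 0, 12 changed sign under normexp, and 0 under quantile normalization, 75th percentile scaling and rebuilt signals. The normexp offset shrinks the ratios of dim probes whatever the data, so that their sign changes carry little information. Scaling to the median of the probes that every array detected moved the median log2 ratio of all probes between CTLA-4-Ig and hIgG from 0.09 to -0.02 and changed no sign of a member. The number of arrays limits the precision, and most member probes lie below the stricter limit, where the spread between arrays is wide.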
